A study of Mus musculus with 12 samples.

Results

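Voltage-gated calcium and sodium channel genes were described in 12 mouse neuroendocrine thyroid carcinomas. The members were taken by gene symbol from the deposited count tables: symbols starting with Cacna, Cacnb or Cacng, and symbols made of Scn, a number and a or b. This gave 39 of 23284 genes, 26 for calcium channels and 13 for sodium channels, and 35 of them passed the filter on low counts. The tumours were primary thyroid tumours of a genetically engineered mouse model, made to find genes that Crebbp, a histone acetyltransferase, regulates. In 7 tumours, named RP-labelled below, the genotype label read Rb1/Trp53. In the other 5, named RPC-labelled, it read Rb1/Trp53/Crebbp. Alterations of the tumour suppressor genes Rb1 and Trp53 are thus named for both groups, and Crebbp is named in addition for the second. The sources used here do not give the promoter that drove any recombinase, the exons targeted, the age of the mice or whether tumours came from separate mice. P-values therefore measure the spread between these tumours.

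Voltage-gated channels open when the membrane depolarises. In a calcium channel the pore-forming alpha1 subunit sets the channel class, alpha2delta and beta subunits control how much channel reaches the membrane and how it gates, and the gamma genes encode a muscle channel subunit and relatives, several of which are auxiliary proteins of AMPA-type glutamate receptors. Sodium channels have a pore-forming alpha subunit and small beta subunits that also act in cell adhesion. Thyroid C cells, from which medullary carcinomas arise, are electrically excitable and release calcitonin when calcium enters through voltage-gated channels.

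Total gene counts were 9.11 M to 57.3 M in RP-labelled and 9.14 M to 20.5 M in RPC-labelled tumours. Levels are given as CPM, the counts of a gene relative to the TMM-scaled library (TMM is a scaling that trims extreme genes), and 3 counts, taken as the floor of detection, correspond to 0.0502 to 0.312 CPM. Such limits cover counting error only. Crebbp itself ranged from 41.0 to 98.9 CPM in the first group with a median of 49.3, and had a median of 52.4 and a highest value of 60.8 CPM in the second (log2 fold change -0.02 ± 0.20, adjusted p = 0.957 by edgeR). The log2 fold change was 0.37 ± 0.17 for Rb1 (adjusted p = 0.137) and -0.84 ± 0.17 for Trp53 (adjusted p = 0.00918). Whole-gene counts cannot reveal a missing exon, so these 3 genes check nothing about the labels. All 12 markers of C cells and neuroendocrine cells were detected in both groups. Their sums were 96450 to 234800 CPM in RP-labelled and 25680 to 139300 CPM in RPC-labelled tumours, most of it Calca, the calcitonin gene. Calca itself had an adjusted p of 0.103 by edgeR. Of the 12, Gfra1 rose 5.34-fold (adjusted p = 0.00181) and Nkx2-1 fell by 0.44 on the log2 scale (adjusted p = 0.0165). Markers of other cells were also present. Thyroid follicular markers summed to 1644 to 9306 CPM in RP-labelled and 55.8 to 5760 CPM in RPC-labelled tumours, with 2 of 11 tested markers lower, and adipocyte markers to 83.9 to 1787 and 60.2 to 122.4 CPM, with 10 of 10 lower. The RP-labelled tumours were split in adipocyte sums. These were 598 to 1787 CPM in replicates 2, 4, 6 and 7, but 83.9 to 149.8 CPM in replicates 1, 3 and 5. Neuron markers summed to 514.7 to 725.8 CPM in RP-labelled and 464.3 to 692.9 CPM in RPC-labelled tumours. Most of that was Snap25 and Map2, with means of 276 and 229 CPM over the 12 tumours. Nefl and Nefm had means of 0.237 and 0.351 CPM, near the floor. Whether these sums come from neurons was not tested. Of 6 tested neuron markers, Stmn2 rose 3.69-fold (adjusted p = 0.00148 by edgeR). Snap25 fell by 0.45 on the log2 scale (adjusted p = 0.0406 by edgeR). In bulk tumours, fewer cells of a type and less RNA per cell cannot be told apart.

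Between the genotypes, 5 of the 35 tested channel genes rose in RPC-labelled tumours, 2 fell and 28 did not pass the test (edgeR quasi-likelihood test, Benjamini-Hochberg adjusted p under 0.05 over all 14989 tested genes). Among those that rose were Cacna1a and Cacna1b, the P/Q- and N-type calcium channels of presynaptic terminals, Cacng2, an AMPA receptor auxiliary subunit, and Scn9a, a sodium channel of sensory neurons. Those that fell were Cacna2d2 and Cacna2d4, both alpha2delta subunits. Of all genes tested, 18.3% were called, with 9.64% higher and 8.61% lower, against 14.3% higher and 5.71% lower among the channel genes. An unadjusted p under 0.05 was reached by 12 channel genes and by 35.6% of all genes tested. The median log2 fold change was 0.18 over the channel genes and -0.02 over all genes. No overlap in CPM between the groups was found for 4 channel genes, 11.4% of those tested, where 6.26% of all tested genes were in that position. These 4 were Cacna1b, Cacng2, Scn9a and Cacna2d4, and their calls held when any 1 tumour was left out. When a score of the follicular markers was added to the edgeR fit, none of the 7 was called. In that fit 4 channel genes had an unadjusted p under 0.05, and 3 of all 14989 genes were called. The score itself was lower in RPC-labelled tumours (-1.78 to 0.04, against -0.24 to 0.93), so the fit cannot separate it from genotype. The part of other cell types in these differences was not tested further.

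**Figure D1:**
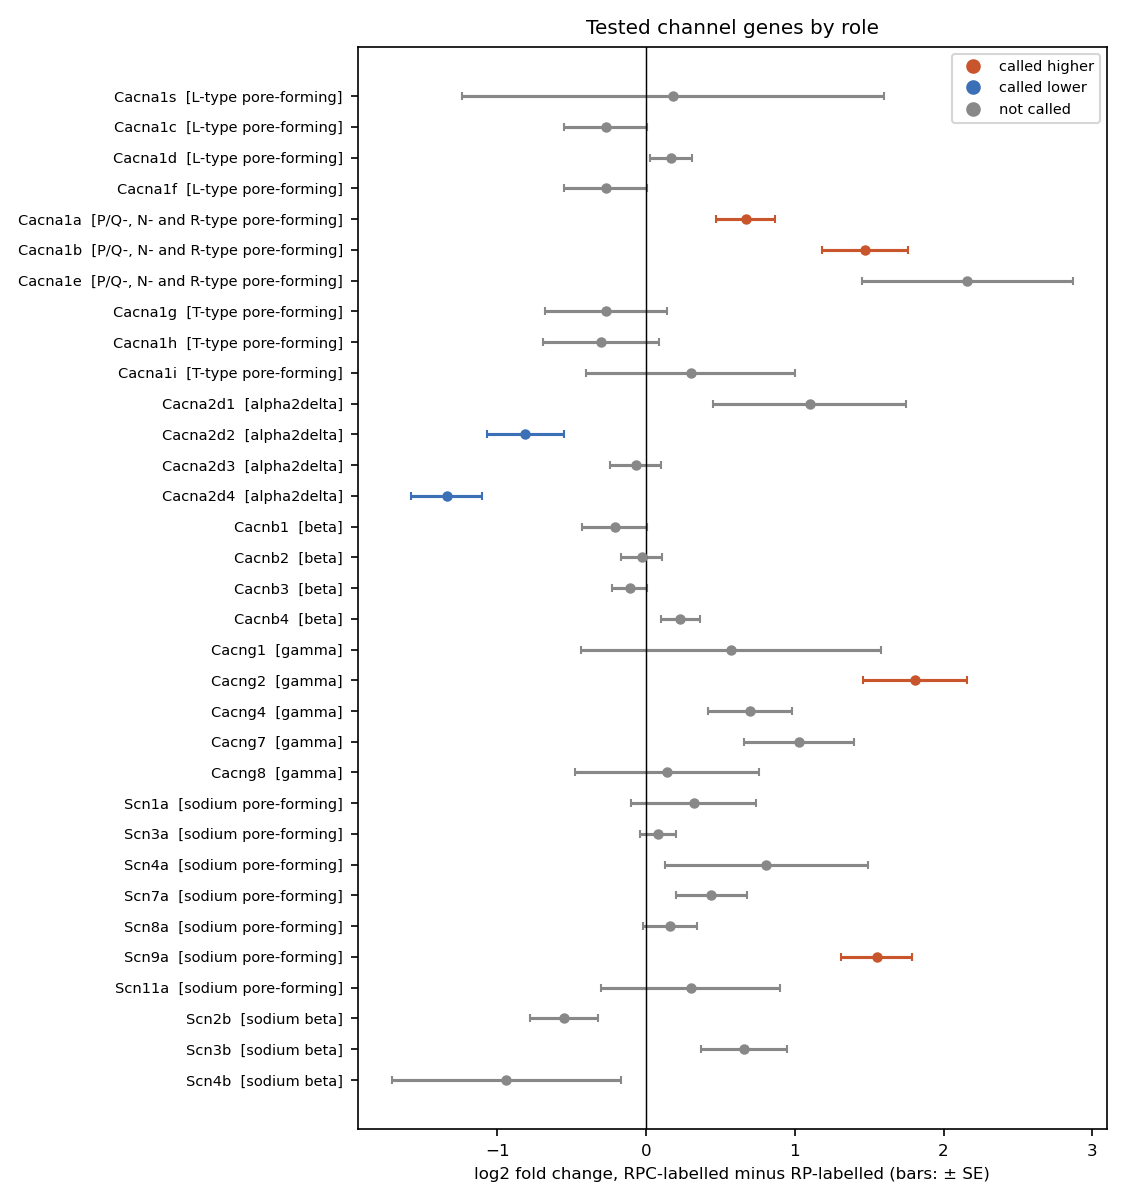
Log2 fold change (RPC-labelled minus RP-labelled, horizontal axis) of tested channel genes, grouped by role, with bars of ± SE. Genes called higher or lower are coloured, and the others are grey. Both called alpha2delta genes lie left of 0, while Cacna1a and Cacna1b lie right of it.

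Promoter sequences were available for 4 of the 7 called genes in the RefSeq promoter table of GRCm38.p6, which held 29 of the 39 members. They are shown because 3 of these genes rose together and 1 fell, and Crebbp is known as a coactivator of CREB, which binds the cAMP response element. The 250 bases before the annotated start were searched on both strands for that element (TGACGTCA), for its half-site (TGACG), which is contained in it, and for the GC box (GGGCGG). Matches are in capitals, 5′ to 3′ on the gene's strand. The positions are chr2:24763153-24763402 (minus strand) for Cacna1b, chr15:78119281-78119530 (minus strand) for Cacng2, chr2:66634963-66635212 (minus strand) for Scn9a and chr9:107399630-107399879 (plus strand) for Cacna2d2, all in GRCm38.p6, whereas the counts were made on mm9.
Cacna1b: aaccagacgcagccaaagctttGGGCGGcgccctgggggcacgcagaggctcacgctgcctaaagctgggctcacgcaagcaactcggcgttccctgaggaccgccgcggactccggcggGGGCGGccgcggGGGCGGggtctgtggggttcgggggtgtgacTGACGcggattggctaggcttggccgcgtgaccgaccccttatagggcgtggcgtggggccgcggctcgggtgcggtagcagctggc
Cacng2: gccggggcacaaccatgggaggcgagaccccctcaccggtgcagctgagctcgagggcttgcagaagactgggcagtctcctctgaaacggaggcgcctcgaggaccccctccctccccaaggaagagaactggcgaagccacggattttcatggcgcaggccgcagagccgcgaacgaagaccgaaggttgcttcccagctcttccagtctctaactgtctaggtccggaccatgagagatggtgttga
Scn9a: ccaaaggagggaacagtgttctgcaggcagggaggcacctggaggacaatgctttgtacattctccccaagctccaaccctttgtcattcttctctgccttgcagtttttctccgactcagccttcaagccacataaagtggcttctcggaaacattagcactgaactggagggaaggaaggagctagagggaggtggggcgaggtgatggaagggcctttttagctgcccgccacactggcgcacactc
Cacna2d2: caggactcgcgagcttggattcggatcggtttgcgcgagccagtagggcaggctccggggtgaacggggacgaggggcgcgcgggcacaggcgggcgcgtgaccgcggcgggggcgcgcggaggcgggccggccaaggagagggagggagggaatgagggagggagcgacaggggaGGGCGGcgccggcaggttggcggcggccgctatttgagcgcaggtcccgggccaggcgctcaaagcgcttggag
The Cacna1b window held 1 half-site and 3 GC boxes, and the Cacna2d2 window held 1 GC box. No match was found in the Cacng2 and Scn9a windows, which says only that these letters are not there. Over all 32851 promoters of the table, 1.55% held the full element, 17.8% the half-site and 32.7% the GC box. Of the 39 promoter windows of these 29 members, 6 held the half-site, 15 the GC box and 0 the full element. G and C made up 72.0% of the Cacna1b window, 74.4% of the Cacna2d2 window, 62.0% of the Cacng2 window and 54.4% of the Scn9a window.

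Levels were compared between genes per kb of transcript, using the length of the GENCODE vM21 transcript with the longest coding sequence. In RP-labelled tumours the most abundant channel transcript was Cacnb3, a beta subunit, at 42.2 ± 7.22 CPM per kb (SD, n = 7), followed by Cacna2d2 at 34.6 ± 11.1. The ranges of these genes overlapped over the 7 tumours. Scn3a, a sodium channel of embryonic neurons and endocrine cells, came next at 17.5 ± 2.60 CPM per kb, and then Cacna1a at 14.1 ± 5.08. This order depends on the length used: per kb of coding sequence Scn2b, ranked 9 per kb of transcript, ranked 3 and Scn3a 4. Cacna2d3, the T-type gene Cacna1h and the L-type gene Cacna1d had means of 11.8, 11.5 and 7.06 CPM per kb, and Cacnb1 stood between Cacna1a and Cacna2d3. The ranges of Cacnb1, Cacna2d3 and Cacna1h overlapped. In RPC-labelled tumours Cacnb3 again led with 39.1 ± 2.55 CPM per kb (SD, n = 5), above the range of every other member. Cacna1a was second at 22.4 ± 2.82, and the ranges of Cacna2d2 (19.8 ± 6.87) and Scn3a (18.4 ± 2.22) overlapped with its range. In both groups Cacna1a had the highest mean of the calcium channel pore genes and Scn3a of the sodium channel pore genes.

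**Figure D2:**
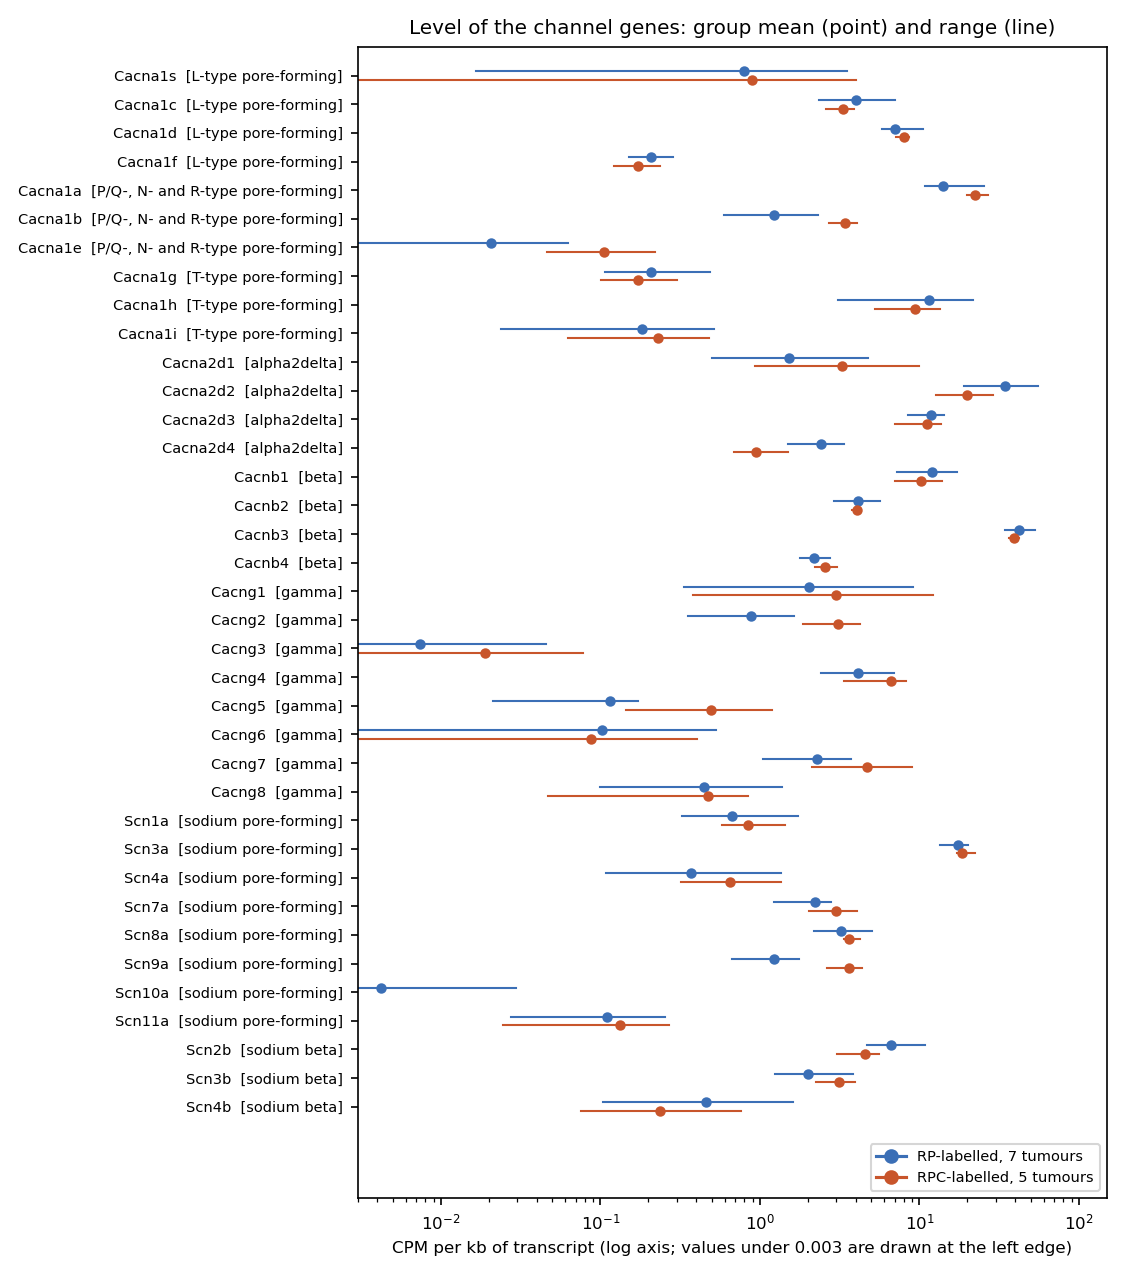
CPM per kb of transcript (horizontal log axis) for the channel genes by role; points are group means and lines run from the lowest to the highest tumour of the 7 RP-labelled and 5 RPC-labelled tumours. Cacnb3 has the highest mean in both groups (42.2 and 39.1), and Scn10a, at 0 in all RPC-labelled tumours, has no second point.

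The make-up of the pore-forming transcripts differed between the groups in these per-length values, which are given as a description. P/Q-, N- and R-type genes together made up 39.4% ± 6.12 (SD, n = 7) of calcium channel alpha1 transcripts in RP-labelled and 54.0% in RPC-labelled tumours, with overlapping ranges of 30.2% to 49.3% and 47.5% to 61.1%. L-type genes made up 31.5% ± 4.99 and 25.8% ± 5.64, and T-type genes 29.1% ± 10.3 and 20.2% ± 5.47. Sodium channel shares were taken among the 9 alpha genes of the symbol rule. That rule leaves out Scn2a1 (Scn2a), with means of 19.7 and 27.1 CPM in the groups. Shares of all alpha subunit transcripts would therefore be smaller. Among the 9, Scn3a took 65.4% ± 2.14 in RP-labelled and 54.1% ± 3.48 in RPC-labelled tumours. Its ranges of 63.3% to 69.4% and 48.7% to 57.3% did not overlap. The mean Scn3a level itself was 17.5 and 18.4 CPM per kb, while Scn9a went from 4.69% ± 1.66 to 10.6% ± 1.46. Shares within a family depend on each other, and they carry the lengths assumed for the transcripts.

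The P/Q-, N- and R-type genes encode the high-voltage-activated calcium channels that trigger transmitter release at nerve terminals, and 2 of the 3 rose. Cacna1a, the P/Q-type pore, ranged from 86.0 to 201.7 CPM with a median of 99.3 in RP-labelled tumours, and stood at 185.7, 212.5, 171.4, 161.4 and 157.3 CPM in RPC-labelled replicates 1 to 5. A single RP-labelled tumour, replicate 1, lay within the RPC-labelled range, and the other 6 lay at or below 105.5 CPM. The fold change was 1.59 (log2 fold change 0.67 ± 0.20 SE; adjusted p = 0.0334). Without RP-labelled replicate 1 the log2 fold change was 0.88 (adjusted p = 0.000844), and the call was lost without any 1 of RP-labelled replicates 2, 4, 5, 6 and 7 and RPC-labelled replicates 1, 2, 3 and 5, with adjusted p up to 0.0998. Cacna1b, the N-type pore, ranged from 4.25 to 16.6 CPM with a median of 7.48 in RP-labelled tumours, and stood at 19.8, 29.0, 24.5, 19.5 and 29.3 CPM in RPC-labelled tumours. All 5 RPC-labelled tumours were above every RP-labelled tumour. The fold change was 2.77 (log2 fold change 1.47 ± 0.29 SE; adjusted p = 0.00896). Cacna1e, the R-type pore, was far less abundant, at 0 to 0.937 CPM with a median of 0.254 in RP-labelled and 0.693, 3.30, 2.12, 0.710 and 1.09 CPM in RPC-labelled tumours. At most 3 counts were found in 4 of the 7 RP-labelled tumours, and 3 of 5 RPC-labelled tumours exceeded every RP-labelled tumour. It did not pass the test (log2 fold change 2.16 ± 0.71 SE; adjusted p = 0.0524), although it was called in 5 of 23 alternative fits, 1 of them without RPC-labelled replicate 4.

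L-type channels carry the long-lasting calcium currents of muscle and endocrine cells, and none of their 4 genes was called. Cacna1d, an L-type pore of endocrine and sinoatrial cells, was the most abundant of them. It ranged from 38.3 to 69.1 CPM with a median of 42.4 in RP-labelled tumours, and stood at 56.1, 47.0, 49.8, 55.2 and 52.9 CPM in RPC-labelled tumours. All 5 RPC-labelled values lay above the RP-labelled median but within the range that RP-labelled replicate 1 stretched (log2 fold change 0.17 ± 0.14 SE; adjusted p = 0.386). Without that tumour it was called higher (log2 fold change 0.29; adjusted p = 0.0281). Cacna1c, the L-type pore of heart and smooth muscle, ranged from 15.8 to 46.9 CPM in RP-labelled and from 17.4 to 25.9 CPM in RPC-labelled tumours (adjusted p = 0.501). Smooth muscle and pericyte markers summed to 111.9 to 308.0 CPM in RP-labelled and 82.1 to 496.7 CPM in RPC-labelled tumours, with 4 of 9 markers lower. The highest sum held 383.0 CPM of Des, which skeletal muscle also expresses, and without Des the sums were 98.9 to 183.8 and 74.2 to 113.8 CPM. Their part in the Cacna1c level was not tested. Cacna1f, the retinal L-type pore, had means of 1.27 and 1.04 CPM (adjusted p = 0.502). The skeletal muscle gene Cacna1s is described with the other muscle genes.

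T-type channels open near the resting potential, and none of the 3 genes passed the test. Cacna1h carried nearly all of their transcripts. It ranged from 25.5 to 179.6 CPM with a median of 92.2 in RP-labelled tumours, and stood at 79.9, 78.8, 71.7, 110.1 and 43.0 CPM in RPC-labelled tumours. The RPC-labelled values fell inside the RP-labelled range, which spanned 7 tumours with an SD of 52.0 CPM (log2 fold change -0.30 ± 0.39 SE; adjusted p = 0.608). Cacna1g and Cacna1i, T-type pores of neurons, stood between 0.231 and 5.01 CPM in all 12 tumours, with adjusted p of 0.666 and 0.785.

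The alpha2delta subunits, targets of gabapentin-type drugs in the case of Cacna2d1 and Cacna2d2, held both falls among the channel genes. Cacna2d2 had the highest mean CPM of the 39 members in RP-labelled tumours. It ranged from 106.0 to 305.7 CPM with a median of 197.2 in RP-labelled tumours, and stood at 137.2, 70.3, 97.8, 160.5 and 81.8 CPM in RPC-labelled tumours. The RPC-labelled values were all below the RP-labelled median, and 3 of 5 were below every RP-labelled tumour. It fell 1.75-fold (log2 fold change -0.81 ± 0.26 SE; adjusted p = 0.0469). This call lies at the threshold: it held in 2 of 12 fits that left out 1 tumour, those that dropped RPC-labelled replicate 4 and RP-labelled replicate 3, and the adjusted p reached 0.113 without RPC-labelled replicate 2. Cacna2d4, an alpha2delta subunit of photoreceptors, ranged from 8.69 to 19.7 CPM with a median of 14.9 in RP-labelled tumours, and stood at 5.29, 4.40, 8.68, 3.996 and 5.21 CPM in RPC-labelled tumours. The groups did not overlap, though RPC-labelled replicate 3 came close to the lowest RP-labelled tumour. It fell 2.53-fold (log2 fold change -1.34 ± 0.24 SE; adjusted p = 0.00655). Cacna2d3, a neuronal alpha2delta subunit, had means of 43.5 ± 7.75 and 41.5 ± 9.93 CPM in the groups (adjusted p = 0.808). Of the tested adipocyte and follicular markers, 10 of 10 and 2 of 11 fell as well. Adipocyte sums were high only in RP-labelled replicates 2, 4, 6 and 7. With the adipocyte score added to the edgeR fit, the log2 fold change was -1.52 for Cacna2d4 (adjusted p = 0.0462) and -1.02 for Cacna2d2 (adjusted p = 0.143). With the follicular score it was -1.37 for Cacna2d4 (adjusted p = 0.245) and -0.03 for Cacna2d2 (adjusted p = 0.987). Because both scores were mostly lower in RPC-labelled tumours, these fits cannot separate score from genotype.

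The 4 beta subunit genes, whose products bind the alpha1 subunit inside the cell, did not pass the test. Their log2 fold changes lay between -0.21 and 0.23. Cacnb3, a beta subunit of neurons and endocrine cells, ranged from 84.8 to 131.3 CPM with a median of 102.6 in RP-labelled tumours, and stood at 104.6, 100.6, 98.5, 89.6 and 91.3 CPM in RPC-labelled tumours. The groups overlapped throughout (log2 fold change -0.11 ± 0.12 SE; adjusted p = 0.526). Cacnb1, the muscle beta subunit, had means of 26.8 and 23.1 CPM, Cacnb2, the heart beta subunit, 16.3 and 16.0 CPM, and Cacnb4, a brain beta subunit, 17.9 and 21.0 CPM, with adjusted p of 0.526, 0.918 and 0.216.

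Among the 8 gamma genes, 5 were tested and 1 rose. Cacng2 encodes stargazin, an auxiliary protein of AMPA receptors that brings them to synapses. It ranged from 1.95 to 9.06 CPM with a median of 4.17 in RP-labelled tumours, and stood at 17.1, 23.6, 10.2, 11.3 and 22.95 CPM in RPC-labelled tumours. Every RPC-labelled tumour exceeded every RP-labelled tumour, RPC-labelled replicate 3 by the least. The fold change was 3.52 (log2 fold change 1.81 ± 0.35 SE; adjusted p = 0.00857). Cacng4, which encodes a related auxiliary protein of AMPA receptors, was the most abundant gamma gene. It ranged from 8.45 to 24.3 CPM with a median of 11.98 in RP-labelled tumours. In RPC-labelled tumours it stood at 25.8, 27.6, 22.2, 11.7 and 28.8 CPM. RPC-labelled replicate 4 lay below the RP-labelled median and 3 of the other 4 above the RP-labelled range, and the test was not passed (log2 fold change 0.70 ± 0.28 SE; adjusted p = 0.0959). It was called when RPC-labelled replicate 4 was left out, and likewise for RP-labelled replicate 3. Cacng7, of the same family, stood at 2.29 to 8.28 CPM with a median of 4.80 in RP-labelled and 5.55, 19.8, 8.35, 4.71 and 13.1 CPM in RPC-labelled tumours. It did not pass the test, with an adjusted p of 0.0691 for a log2 fold change of 1.03 ± 0.37, and was called without RPC-labelled replicate 4. In these 3 genes RPC-labelled replicate 4 was among the 2 lowest of its group. Cacng8 had means of 0.841 and 0.898 CPM (adjusted p = 0.894). Cacng3, Cacng5 and Cacng6 did not pass the filter on low counts. Of these, Cacng5 stood at 0.0787 to 0.634 CPM in RP-labelled and at 0.882, 4.40, 1.65, 0.533 and 1.74 CPM in RPC-labelled tumours, Cacng3 did not exceed 0.217 CPM, and Cacng6 belongs with the muscle genes.

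Of the 9 sodium channel alpha genes, 8 were tested, and Scn9a was among those that rose. Scn9a, known for its role in pain signalling and present in neuroendocrine cells, had the smallest p of the 35 tested members. It ranged from 6.53 to 17.4 CPM with a median of 13.5 in RP-labelled tumours, and stood at 38.4, 38.6, 32.4, 25.8 and 43.0 CPM in RPC-labelled tumours. The groups did not overlap, and the lowest RPC-labelled tumour was replicate 4. The fold change was 2.93 (log2 fold change 1.55 ± 0.24 SE; adjusted p = 0.00321).

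Scn3a was the most abundant sodium channel gene and did not pass the test. It ranged from 128.9 to 193.7 CPM with a median of 163.7 in RP-labelled tumours, and stood at 213.6, 163.9, 163.5, 167.7 and 171.8 CPM in RPC-labelled tumours. All RPC-labelled tumours other than replicate 1 lay within the RP-labelled range (log2 fold change 0.08 ± 0.12 SE; adjusted p = 0.678). Scn8a, a sodium channel of nodes of Ranvier and axon initial segments, had means of 37.1 and 41.3 CPM (adjusted p = 0.558), and Scn1a, a sodium channel of inhibitory neurons, 5.61 and 7.06 CPM (adjusted p = 0.615). Scn7a, a sodium sensor that is not gated by voltage, had means of 16.4 and 22.2 CPM (adjusted p = 0.205). Schwann cell markers, cells in which Scn7a is also found, summed to 204.4 to 269.8 CPM and 207.5 to 217.2 CPM in the groups, with 2 of 6 tested markers lower. The pain-fibre channels Scn10a and Scn11a were near the floor: Scn10a was at 0 in 11 tumours and at 0.190 CPM in RP-labelled replicate 7, and Scn11a stood at 0.145 to 1.598 CPM in all 12 (adjusted p = 0.748). Scn2a1, the older symbol of Scn2a, lies outside the symbol rule and was held in the partner list. It had means of 19.7 ± 5.38 and 27.1 ± 4.99 CPM and did not pass the test (log2 fold change 0.46 ± 0.19 SE; adjusted p = 0.0982).

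None of the 4 sodium channel beta genes, whose products modulate gating and act as adhesion molecules, was called. Scn2b, the most abundant in CPM, ranged from 21.7 to 50.9 CPM with a median of 27.5 in RP-labelled tumours, and stood at 24.1, 17.0, 25.0, 14.1 and 25.8 CPM in RPC-labelled tumours. The RPC-labelled values were all below the RP-labelled median (log2 fold change -0.55 ± 0.23 SE; adjusted p = 0.111). Scn3b stood at 5.21 to 16.0 CPM with a median of 7.08 in RP-labelled and 12.9, 13.0, 9.29, 13.8 and 16.4 CPM in RPC-labelled tumours. Here the RPC-labelled values were all above the RP-labelled median, and RP-labelled replicate 7 lay among them (log2 fold change 0.66 ± 0.29 SE; adjusted p = 0.118). Without RP-labelled replicate 7 Scn3b was called higher (adjusted p = 0.0273). The beta gene Scn4b is described with the muscle genes.

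**Figure D3:**
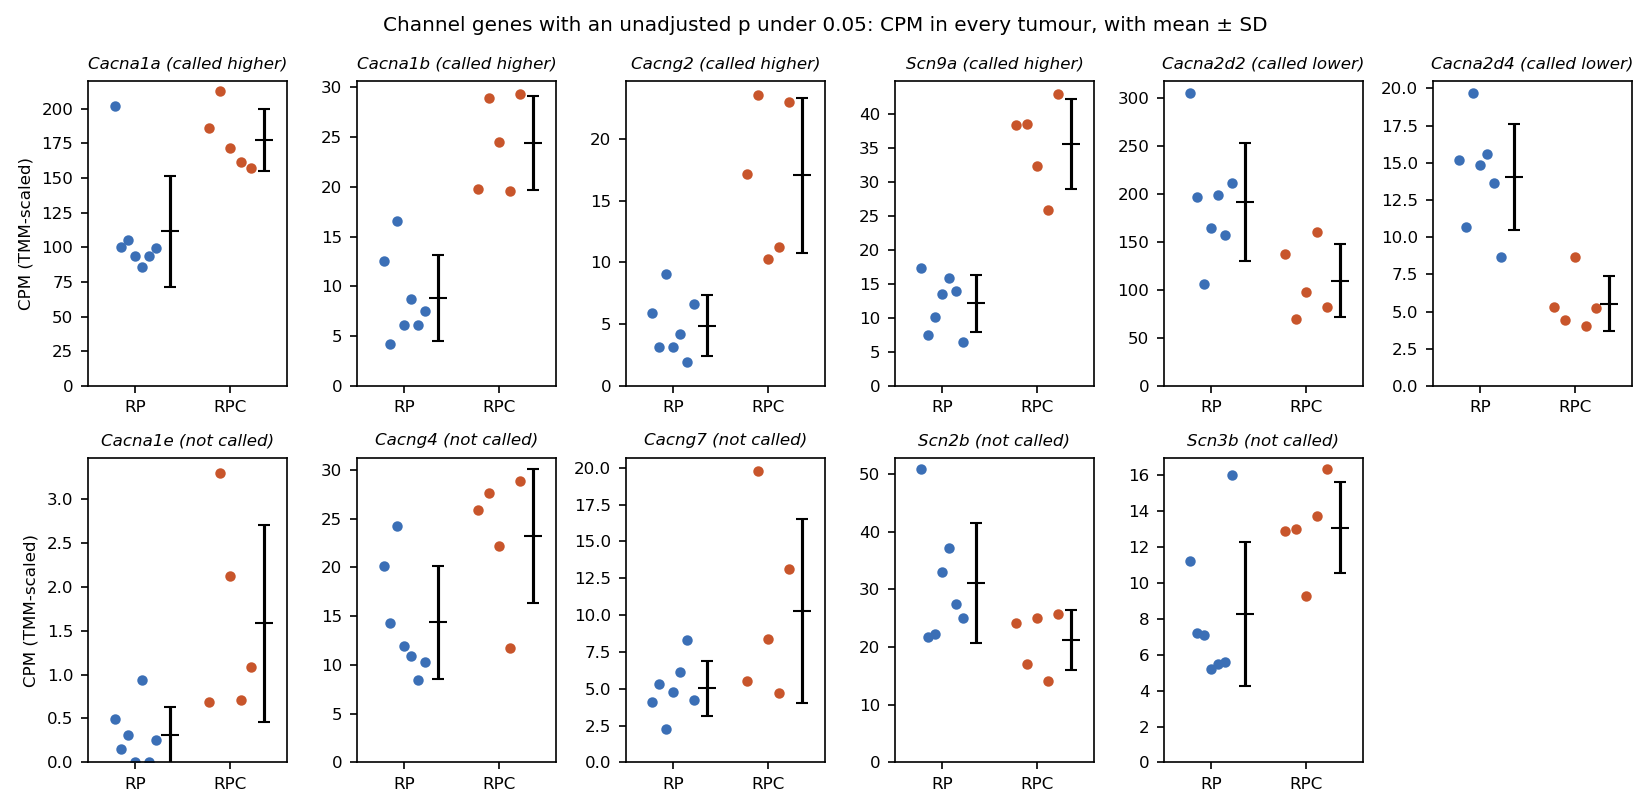
CPM (vertical axis, from 0) of channel genes with an unadjusted p under 0.05; each point is 1 tumour, and bars are the mean ± SD of 7 RP-labelled and 5 RPC-labelled tumours. The groups are apart for Cacna1b, Cacng2, Scn9a and Cacna2d4, whereas in Cacna1a the RP-labelled replicate 1 lies among the RPC-labelled tumours.

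For 7 of the 39 channel genes, 1 tumour of each genotype stood above all others: RP-labelled replicate 6 and RPC-labelled replicate 5. Among them were Cacna1s, Cacng1 and Cacng6, the pore and gamma subunits known from skeletal muscle, the alpha2delta gene Cacna2d1, Scn4a, the skeletal muscle sodium channel, and the beta gene Scn4b. Cacna1s, the voltage sensor for contraction, stood at 22.1 and 25.1 CPM in these tumours, and at 0 to 6.53 CPM with a median of 0.622 in the other 10. Cacng1 stood at 11.5 and 15.1 CPM against at most 1.90 CPM elsewhere, and Scn4a at 8.93 and 8.91 CPM against at most 4.40 CPM. Cacna2d1 stood at 18.7 and 38.9 CPM against at most 10.2 CPM, and Scn4b at 8.04 and 3.77 CPM against at most 2.53 CPM. Cacng6 stood at 1.06 and 0.797 CPM against at most 0.301 CPM. The same 2 tumours were the highest for all 15 skeletal muscle markers, whose sum was 4774 CPM in RP-labelled replicate 6, 4524 CPM in RPC-labelled replicate 5 and 10.6 to 520 CPM in the others. The part of muscle tissue in these levels was not tested.

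Without these 2 tumours, 3 channel genes rose in place of 5, namely Cacna1b, Cacng2 and Scn9a, and Cacna2d4 alone fell. The adjusted p was then 0.0872 for Cacna1a and 0.123 for Cacna2d2, whose log2 fold changes were 0.68 and -0.76. Of all genes, 396 were called higher and 360 lower in that fit, which had fewer tumours, against 1445 and 1291 with all tumours. The sign of Cacna1s changed, from a log2 fold change of 0.18 to -1.60, and that of Cacng1 from 0.57 to -0.26, neither being called in either fit.

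**Figure D4:**
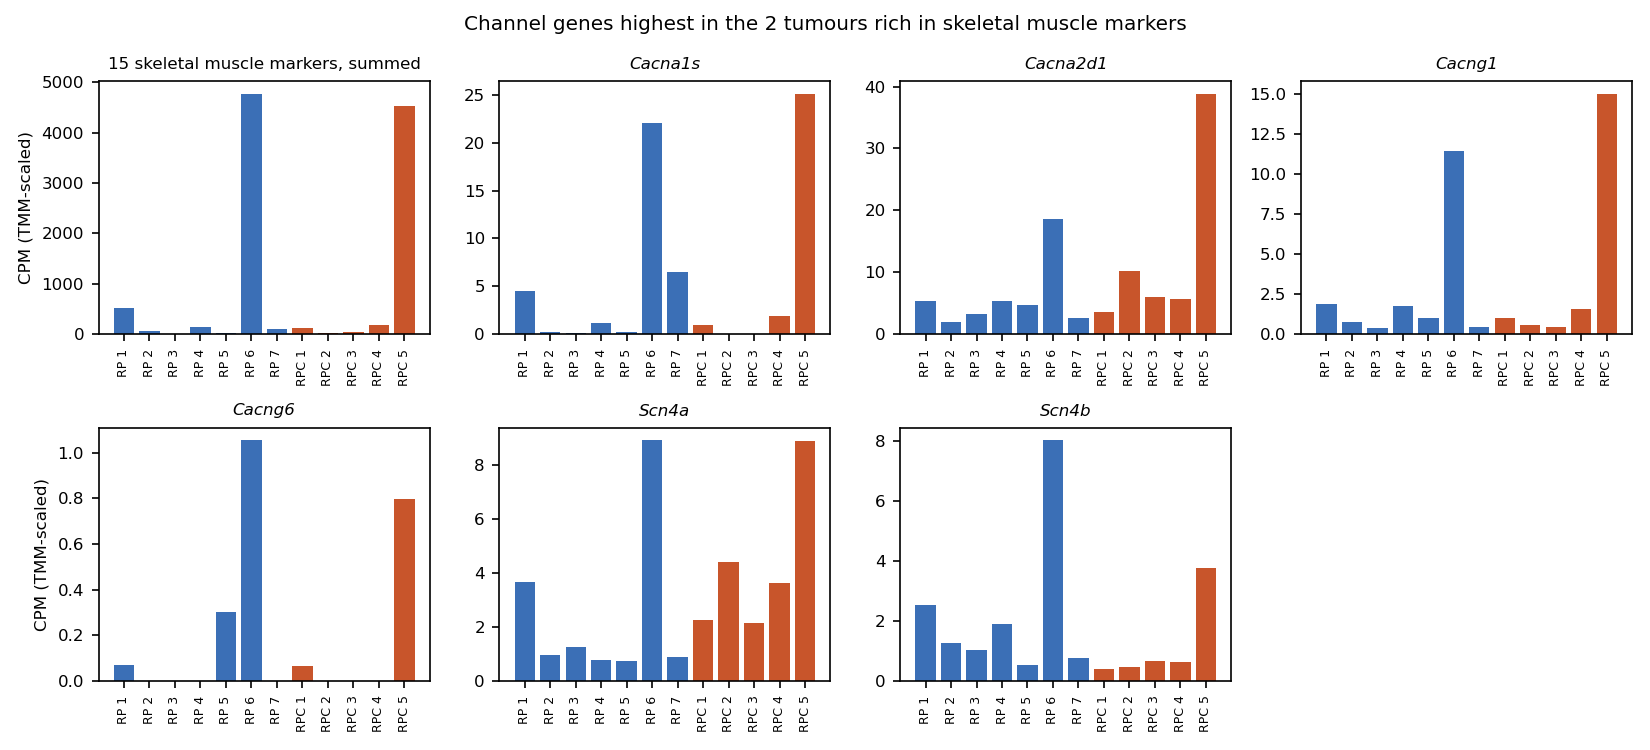
Summed CPM of 15 skeletal muscle markers and CPM of channel genes that were highest in the same 2 tumours (vertical axes, from 0), for each of the 12 tumours; blue bars are RP-labelled and orange bars RPC-labelled. RP-labelled replicate 6 and RPC-labelled replicate 5 stand out in every panel.

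Partners of the channels were taken from 4 lists. Over the lists 9 partners rose and 3 fell, to be read against the 9.64% and 8.61% of all tested genes. Of 26 tested calcium channel partners and regulators 4 rose and 2 fell, with a median log2 fold change of 0.09. The list held 5 active zone scaffolds, proteins that tether calcium channels near vesicles, a subset not set apart when the lists were made. Of these, Rims1, Erc1 and Erc2 rose. Rims2, at 55.1 and 71.4 CPM in the groups, and Rimbp2, at 15.6 and 20.2 CPM, did not pass the test (adjusted p = 0.0928 and 0.359). Erc2 ranged from 4.06 to 6.66 CPM in RP-labelled and from 7.02 to 13.6 CPM in RPC-labelled tumours, 2.02-fold higher (adjusted p = 0.00918), with no overlap. Rims1 was at 0 to 1.08 CPM in RP-labelled and 1.10 to 3.72 CPM in RPC-labelled tumours, a rise of 2.46 ± 0.59 on the log2 scale (adjusted p = 0.0178), with at most 3 counts in 3 of the 7 RP-labelled tumours. Erc1 rose by 0.58 ± 0.18 on the log2 scale (adjusted p = 0.0407). Akap5, a kinase anchoring protein of L-type channels, rose 2.50-fold (adjusted p = 0.0147). Rem1, a small GTPase that inhibits calcium channels, fell from 2.29 to 0.879 CPM (adjusted p = 0.0189), and Stac2, an adaptor of L-type channels, from 81.5 to 38.6 CPM (adjusted p = 0.0257). The Rem1 call was lost without RPC-labelled replicate 1 or 2, that of Stac2 without RPC-labelled replicate 2, and that of Erc1 in 9 of 12 fits that left out 1 tumour, the exceptions being the fits that left out RPC-labelled replicate 4, RP-labelled replicate 1 and RP-labelled replicate 3.

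Of 21 tested sodium channel partners, 2 rose and none fell, with a median log2 fold change of 0.26. Fgf13, an intracellular factor that binds sodium channel tails, ranged from 8.69 to 13.9 CPM in RP-labelled tumours and stood at 35.7, 29.5, 27.8, 23.3 and 28.5 CPM in RPC-labelled tumours, with no overlap. Its fold change was 2.56 (log2 fold change 1.35 ± 0.14 SE; adjusted p = 0.000411). Ank2, a membrane scaffold for channels, ranged from 11.9 to 18.7 CPM in RP-labelled and from 19.0 to 40.6 CPM in RPC-labelled tumours, a 1.91-fold rise (adjusted p = 0.00935). Among 20 tested genes of other calcium entry, release and removal, 2 rose and 1 fell, and the median log2 fold change was -0.01. Ryr2, a calcium release channel of heart and neurons, rose 4.10-fold, from 1.39 to 5.78 CPM (adjusted p = 0.00272), and Slc8a3, a sodium-calcium exchanger, rose from 0.554 to 3.02 CPM (adjusted p = 0.0214), with at most 3 counts in 2 of the 7 RP-labelled tumours. The store-operated channel gene Orai1 fell from 13.2 to 7.24 CPM (adjusted p = 0.00930). For these 3 genes, named because they were called, no tumour of one group lay within the range of the other. That held for 6.26% of all tested genes. The last list held Rest, a repressor of neuronal channel genes, its corepressors Rcor1, Rcor2 and Sin3a, and Srrm4, a neural splicing factor that acts against Rest. Of these 5 genes Sin3a alone rose, by 1.22-fold (adjusted p = 0.0437), and that call was lost in 8 of 12 fits without 1 tumour, RPC-labelled replicate 2 among those left out (adjusted p = 0.149). Rest itself had means of 2.02 and 2.21 CPM (adjusted p = 0.751).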

How the data were processed

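Polyadenylated RNA of 12 tumours was sequenced. Raw counts of reads for each gene symbol were deposited by the authors, for 23284 genes in each tumour, followed by 5 summary lines of the counter. The submitters' processing notes name HTSeq 0.6.1, TopHat2 2.0.12, bcl2fastq 1.8.2 and the mm9 build. The sources used here give neither the annotation nor the strand setting. Reads shared by genes on opposite strands therefore cannot be assigned. The summary lines (reads in no gene made up 13.1% to 17.6% of each table) were left out.

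Counts were analysed with R 4.3.3 and edgeR 4.0.16: filterByExpr with a minimum count of 10 (14989 genes kept), TMM scaling, and the robust quasi-likelihood F test over all 12 tumours without covariates, with Benjamini-Hochberg adjustment over all tested genes and a threshold of 0.05. The SE is the log2 fold change divided by the square root of F. Depth was 9.11 M to 57.3 M gene counts per tumour. The fitting was tested on simulated data. Libraries of the same group differed by more than sampling noise in all pairs. Alternatives were DESeq2 1.42.0, limma 3.58.1 voom, other scalings, filters, marker scores (mean z-scored log2 CPM, prior count 2) and leaving out tumours. Older symbols served for Sptbn4 and Map2. The members and lists were chosen with earlier results of these data known.

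Values are given by tumour for members with an unadjusted p under 0.05 and for the most abundant member of each role, and named partners are the called ones. Tumour values of the muscle genes, Cacng5 and Scn2a1 are also given, a choice made with their values known. Some members are counted in the totals but not reported by value here.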

Additional observations from a re-analysis of the deposited data

Results flagged for a closer look

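In 66 combinations of a tested member and a group, 16 had a highest tumour whose gap to the next took up more of the group's range than Dixon's 95% critical value (0.568 for 7 tumours, 0.710 for 5). Chance would flag about 1 in 20 groups of normally distributed values. The CPM were not transformed and need not be distributed in that way, so the rate may differ here. Genes that follow muscle markers are also not independent of each other.

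RP-labelled replicate 6 stood apart in Cacna1s (22.1 CPM, next 6.53), Cacna2d1 (18.7, next 5.44), Cacng1 (11.5, next 1.90), Scn4a (8.93, next 3.66) and Scn4b (8.04, next 2.53). RPC-labelled replicate 5 stood apart in Cacna1s (25.1 CPM, next 1.86), Cacna2d1 (38.9, next 10.2), Cacng1 (15.1, next 1.598) and Scn4b (3.77, next 0.660). These are 9 of the 16, in the 2 tumours with the highest skeletal muscle markers.

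RP-labelled replicate 1 stood apart in Cacna1a (202 CPM, next 106) and Cacna1d (69.1, next 47.0). RP-labelled replicate 3 did so in Cacna1g (4.06 CPM, next 2.18) and Cacng8 (2.60, next 0.854), and RP-labelled replicate 5, the deepest library, in Scn1a (14.6 CPM, next 5.62). RPC-labelled replicate 1 was high in Scn3a (214 CPM, next 172), and RPC-labelled replicate 3 in Cacna2d4 (8.68 CPM, next 5.29), where it came closest to the RP-labelled tumours.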

How the results depend on the processing

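The calls of Cacna1b, Cacng2, Scn9a and Cacna2d4 held under each of the 12 fits without 1 tumour, other scalings, filters, DESeq2 and voom. The follicular score ended all 4, at log2 fold changes of 0.78 (Cacna1b), 0.69 (Cacng2), 1.36 (Scn9a) and -1.37 (Cacna2d4). That fit called 2 genes higher and 1 lower of 14989. The adipocyte score ended all but Cacna2d4, at 0.88, 1.17 and 1.31, in a fit that called 38 genes higher and 42 lower of 14989. Follicular scores ran from -0.24 to 0.93 in RP-labelled and from -1.78 to 0.04 in RPC-labelled tumours. Adipocyte scores ran from -0.67 to 1.58 and from -0.99 to -0.47. These fits therefore cannot separate score from genotype. The replicate block ended the calls of Cacna1b and Cacng2. Under no alternative did any of the 7 called genes change direction. The number of members called higher, 5 with all tumours, was 8 with DESeq2, 10 with voom, 8 with library totals alone, 3 on the tumours numbered 1 to 5, 0 with the follicular score (4 members of either direction at an unadjusted p under 0.05) and 0 with the adipocyte score as covariates (11 at an unadjusted p under 0.05), and 3 without both muscle-rich tumours (chosen after seeing the data). Of all genes, 1445 were higher in the first fit, 2047 with DESeq2, 3290 with voom and 2691 with library totals. On the tumours numbered 1 to 5 it was 480 genes, and without both muscle-rich tumours 396. Leaving out single tumours gave 3 members called higher (RP-labelled 2, 4, 6; RPC-labelled 1, 2, 5) to 9 (RPC-labelled 4). Of all genes, the fits with 3 members called 557 to 928 higher, and the fit with 9 called 1673. The number called lower, 2, was 1 with library totals, without a filter, on replicates 1 to 5, with the muscle or adipocyte score and without both muscle-rich tumours, 0 with the follicular score, and 1 to 2 without single tumours (1 without any RP-labelled tumour other than replicate 3, or without RPC-labelled 1, 2, 3). Of all genes, 1291 were lower in the first fit, 757 with library totals, 1089 without a filter and 388 on replicates 1 to 5. With the muscle score it was 1292 genes, with the adipocyte score 42 and without both muscle-rich tumours 360. Fits without single tumours called 517 (RPC-labelled 2) to 1710 (RP-labelled 3) genes lower. Library totals alone moved the median log2 fold change of all genes from -0.02 to 0.18. With the tumour number as a replicate block on replicates 1 to 5, 1 member was called higher and 1 lower. Of all genes, that fit called 244 higher and 219 lower. The correlations of same-numbered tumours were -0.056 to 0.159. Tumours of different numbers were not correlated, so these values cannot decide whether the numbers pair tumours. Cacng5, which had not passed the filter, was called higher with DESeq2 (adjusted p = 0.00384), without a filter (0.0290) and without RPC-labelled replicate 4 (0.0114).

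Partners called higher, 9, were 14 with DESeq2, 27 with voom, 18 with library totals, 0 with the follicular and 1 with the adipocyte score, 5 without both muscle-rich tumours, and 7 to 14 without single tumours (14 without RP-labelled replicate 1). Partners called lower, 3, were 5 with DESeq2, 6 with voom, 1 with the block, 0 with the follicular or adipocyte score, and 1 (without RPC-labelled replicate 2) to 5 (without RP-labelled replicate 1). Of all genes, 1766 were higher and 1562 lower without RP-labelled replicate 1, and 557 and 517 without RPC-labelled replicate 2. The Crebbp log2 fold change of -0.02 was 0.19 with voom, 0.17 with library totals and 0.01 with the block. It was -0.39 with the adipocyte score, and -0.08 to 0.19 without single tumours. Of 28 uncalled members 21 crossed 0 under at least 1 alternative. Among them were Cacna1d (-0.11, adipocyte score), Cacna1h (0.11, voom), Cacnb3 (0.01, voom; 0.08, library totals), Cacng4 (-0.11, follicular score) and Scn3a (-0.07, follicular score; -0.12, adipocyte score; 0 without RPC-labelled replicate 1). The causes were not tested. With coding in place of transcript length, the mean over 12 tumours went from 28.4 to 45.3 CPM per kb for Cacna2d2, 40.9 to 69.8 for Cacnb3, 5.16 to 18.4 for Cacng4, 5.79 to 41.8 for Scn2b and 17.9 to 29.3 for Scn3a, since long untranslated ends were left out. Members near 0.0502 to 0.312 CPM are limited by depth.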

Other observations

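Among the 35 tested members, RP-labelled replicate 1 held the highest level of its group for 9, replicate 3 for 10 and replicate 6 for 8, while RP-labelled replicate 4 was highest for none. Over all tested genes, replicate 1 was the highest of the 7 for 17.6%, replicate 3 for 23.7% and replicate 6 for 11.5%. Replicate 4 was so for 7.63%, the lowest share of the 7.

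Parathyroid markers were present in several tumours. Pth, the parathyroid hormone gene, ranged from 0.174 to 2501 CPM in RP-labelled and from 0.378 to 1066 CPM in RPC-labelled tumours (edgeR adjusted p = 0.537). Casr, the calcium-sensing receptor of both parathyroid and C cells, was more even, at 65.3 to 290.2 CPM and 88.4 to 172.2 CPM.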
